A study of Mus musculus with 64 samples.

Results

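Sema5b, Slc35a5, Cd200, Dubr, Cep97 and Pcnp are 6 genes of mouse chromosome 16, the chromosome that also carries Polq. They were taken by symbol from a table of 48795 genes because their RNA was lower in mice carrying the Polq allele in at least 1 tissue. They made up 6 of the 7 genes that were lower at an adjusted p under 0.05 (edgeR quasi-likelihood test, Benjamini-Hochberg over all genes tested) in any of 4 comparisons, Polq+/- against WT and Q140 Polq+/- against Q140 in striatum and in cortex. The other gene was Polq itself. Of all genes tested, 0.0164% (Polq+/- against WT) and 0.0274% (Q140 Polq+/- against Q140) were lower in striatum, and 0.011% in each comparison in cortex. The genes were thus chosen by their counts in these comparisons, so differences by Polq label are given below as a description without a test. Tests are given for tissue, sex and the Q140 difference averaged over Polq label, which the choice did not use. Within a tissue these tests share each gene's estimated spread with the comparisons that made the choice.

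RNA was sequenced from striatum and cerebral cortex of 32 C57BL/6 mice, all 6 months old, in 4 genotypes of 8 mice each (4 females and 4 males). WT mice carried neither allele, Polq+/- mice were labelled with 1 altered copy of Polq, Q140 mice carried a heterozygous knock-in of an expanded CAG repeat in huntingtin, and Q140 Polq+/- mice carried both. The knock-in is a model of Huntington's disease, and Polq encodes DNA polymerase theta, an enzyme that joins broken DNA ends. The labels used here do not say how the Polq allele was made. Each mouse gave both tissues, so there were 64 libraries, and mice are named below by genotype, sex letter and replicate number.

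The 6 genes do different work. Sema5b encodes a transmembrane semaphorin that guides growing axons. Cd200 encodes a membrane glycoprotein of neurons that restrains microglia through the CD200 receptor. Slc35a5 belongs to the nucleotide-sugar transporters that supply glycosylation in the Golgi. Cep97 caps the mother centriole together with Ccp110 and holds back growth of the primary cilium. Pcnp encodes a small nuclear protein that the ubiquitin ligase Uhrf2 can modify. Dubr is a long noncoding RNA transcribed near Dppa2, known from muscle precursor cells, where it recruits DNA methyltransferases.

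All positions are on GRCm38 chromosome 16. Sema5b (ENSMUSG00000052133, plus strand, 35541145 to 35664732) starts 1.47 Mb before Polq. The other 5 lie beyond Polq on the minus strand. Slc35a5 (ENSMUSG00000022664, 45139573 to 45158706) starts 8.13 Mb away and Cd200 (ENSMUSG00000022661, 45382135 to 45409053) 8.37 Mb away. Dubr (ENSMUSG00000022639, 50719294 to 50732773), annotated as a lincRNA, starts 13.7 Mb away. Cep97 (ENSMUSG00000022604, 55899888 to 55934855) and Pcnp (ENSMUSG00000071533, 56007245 to 56029739) are 18.9 and 19.0 Mb away. The 3 annotated overlaps lie on the opposite strand: the pseudogene Gm5963 in Sema5b, Mir6363 in Dubr, and the last 1669 bases of Zbtb11 over the end of Pcnp. Whether counting used strand is unknown here, so reads of such partners may be shared.

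The 250 bases before the RefSeq start (GRCm38.p6, 5′ to 3′ on the gene's strand) are shown for 4 of the genes: Cep97 and Pcnp, whose levels moved together; Dubr, whose difference by Polq label had opposite directions in the 2 tissues; and Cd200, which had the largest Q140 difference. Capitals mark matches on either strand to a GC box (GGGCGG), the CCAAT box or a TATA box with the letters TATAAA.
Cd200: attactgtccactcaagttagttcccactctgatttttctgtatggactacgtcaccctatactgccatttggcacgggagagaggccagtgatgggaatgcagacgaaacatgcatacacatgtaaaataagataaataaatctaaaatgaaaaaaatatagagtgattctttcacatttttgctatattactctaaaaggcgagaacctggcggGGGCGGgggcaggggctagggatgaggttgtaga
Dubr: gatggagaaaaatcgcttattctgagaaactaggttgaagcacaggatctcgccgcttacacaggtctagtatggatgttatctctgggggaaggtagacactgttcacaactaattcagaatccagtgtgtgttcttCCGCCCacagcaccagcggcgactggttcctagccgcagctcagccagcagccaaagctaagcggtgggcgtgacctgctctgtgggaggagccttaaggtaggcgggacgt
Cep97: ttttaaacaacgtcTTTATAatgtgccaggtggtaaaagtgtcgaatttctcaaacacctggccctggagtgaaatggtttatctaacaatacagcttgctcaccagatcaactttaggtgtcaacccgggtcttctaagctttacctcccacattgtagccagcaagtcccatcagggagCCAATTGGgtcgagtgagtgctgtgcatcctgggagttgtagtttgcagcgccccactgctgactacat
Pcnp: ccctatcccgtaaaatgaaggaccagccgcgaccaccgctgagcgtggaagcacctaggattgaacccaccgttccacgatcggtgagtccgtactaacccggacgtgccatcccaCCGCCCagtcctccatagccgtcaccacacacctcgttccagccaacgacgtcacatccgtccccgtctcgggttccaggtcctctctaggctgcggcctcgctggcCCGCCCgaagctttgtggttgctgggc

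The windows are chr16:45409054-45409303 (Cd200), chr16:50732774-50733023 (Dubr), chr16:55934849-55935098 (Cep97) and chr16:56029718-56029967 (Pcnp), all minus strand. Pcnp held 2 GC boxes, Dubr and Cd200 1 each, and Cep97 none. Cep97 held 2 CCAAT matches that overlap on opposite strands, and 1 TATA match 236 bases before the start. Among 32851 mouse promoters of this length, 32.7% held a GC box, 33.8% a CCAAT box and 12.4% a TATA box. The windows of Pcnp and Slc35a5 held 23 CG dinucleotides each, Sema5b 19, Dubr 11, Cd200 6 and Cep97 5, against a median of 6 over all promoters. Searches for an E-box (CACGTG, 6.02% of promoters), a CRE (TGACGTCA, 1.55%) and an ETS core (CCGGAAG, 6.91%) matched only Slc35a5, with 2 E-boxes and 1 ETS core. No motif of the 6 searched was found in all 6 windows, and a match describes letters, not a binding site.

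The libraries held 28.7 to 40.6 M gene counts in striatum and 30.9 to 40.1 M in cortex. Summed CPM (gene counts per M counts of the library, M being mega, scaled by the TMM method) of 7 spiny projection neuron markers was 4760 to 9001 in striatal and 174 to 207 in cortical libraries. Summed CPM of 6 cortical excitatory neuron markers was 1636 to 1927 in cortex and 2.95 to 30.3 in striatum. The 3 striatal libraries WT M2, WT M3 and Polq+/- F3 stood apart in earlier work on these data, and in Polq+/- F3 the 6 choroid plexus markers summed to 1378 CPM. Without them all 6 Q140 calls in striatum and the directions of the 6 Polq-label differences stayed. Of 10 cell type marker lists, no gene was called by Polq label in either tissue. Polq itself had a mean of 3.14 ± 0.506 CPM in WT and 1.66 ± 0.648 CPM in Polq+/- striatum (SD, n = 8), and 2.48 ± 0.520 and 1.19 ± 0.245 CPM in cortex. It was 3.10 ± 0.409 CPM in Q140 and 1.35 ± 0.939 CPM in Q140 Polq+/- striatum, and 2.39 ± 0.374 and 1.09 ± 0.606 CPM in cortex. In 4 mice striatal Polq was far below the other carriers, at 0.376 CPM in Polq+/- M3 and 0.299, 0.187 and 0.245 CPM in Q140 Polq+/- F3, F4 and M3. These values go against a label of 1 altered copy of Polq, and they fall in 1 of 8 Polq+/- and 3 of 8 Q140 Polq+/- mice, so the 2 carrier groups are unlike in this. The mice are kept as labelled, and average Polq-label differences without them are given below where they moved by more than 1 SE. In bulk tissue, fewer cells of a type and less RNA per cell cannot be told apart.

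Per gene length, Pcnp and Cd200 were the most abundant of the 6 in both tissues of all 4 genotypes. Mean FPKM (fragments per kilobase of transcript and per M mapped fragments, as deposited) in WT striatum was 18.3 ± 1.02 for Pcnp, 13.7 ± 1.25 for Cd200, 5.13 ± 0.184 for Slc35a5, 4.46 ± 0.364 for Sema5b, 3.76 ± 0.402 for Dubr and 3.39 ± 0.163 for Cep97 (SD, n = 8). In WT cortex it was 23.5 ± 0.295 for Pcnp, 20.7 ± 0.722 for Cd200, 5.305 ± 0.167 for Slc35a5, 2.53 ± 0.137 for Cep97, 1.31 ± 0.185 for Sema5b and 1.085 ± 0.122 for Dubr. Of neighbours in these orders, Dubr and Cep97 in striatum differed by less than the larger of their SDs. The order was not the same in every genotype. In Q140 striatum Cd200 at 21.35 ± 0.5262 FPKM stood above Pcnp at 20.8 ± 0.842, a gap below the larger SD, and in Q140 Polq+/- striatum Dubr at 5.34 ± 0.328 stood above and Sema5b at 2.699 ± 0.5264 below Slc35a5 at 4.82 ± 0.277 and Cep97 at 3.63 ± 0.338. Every library held at least 195 counts of Sema5b, Slc35a5, Cd200, Cep97 and Pcnp, and Dubr had 79 to 226 counts in cortex.

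**Figure D1:**
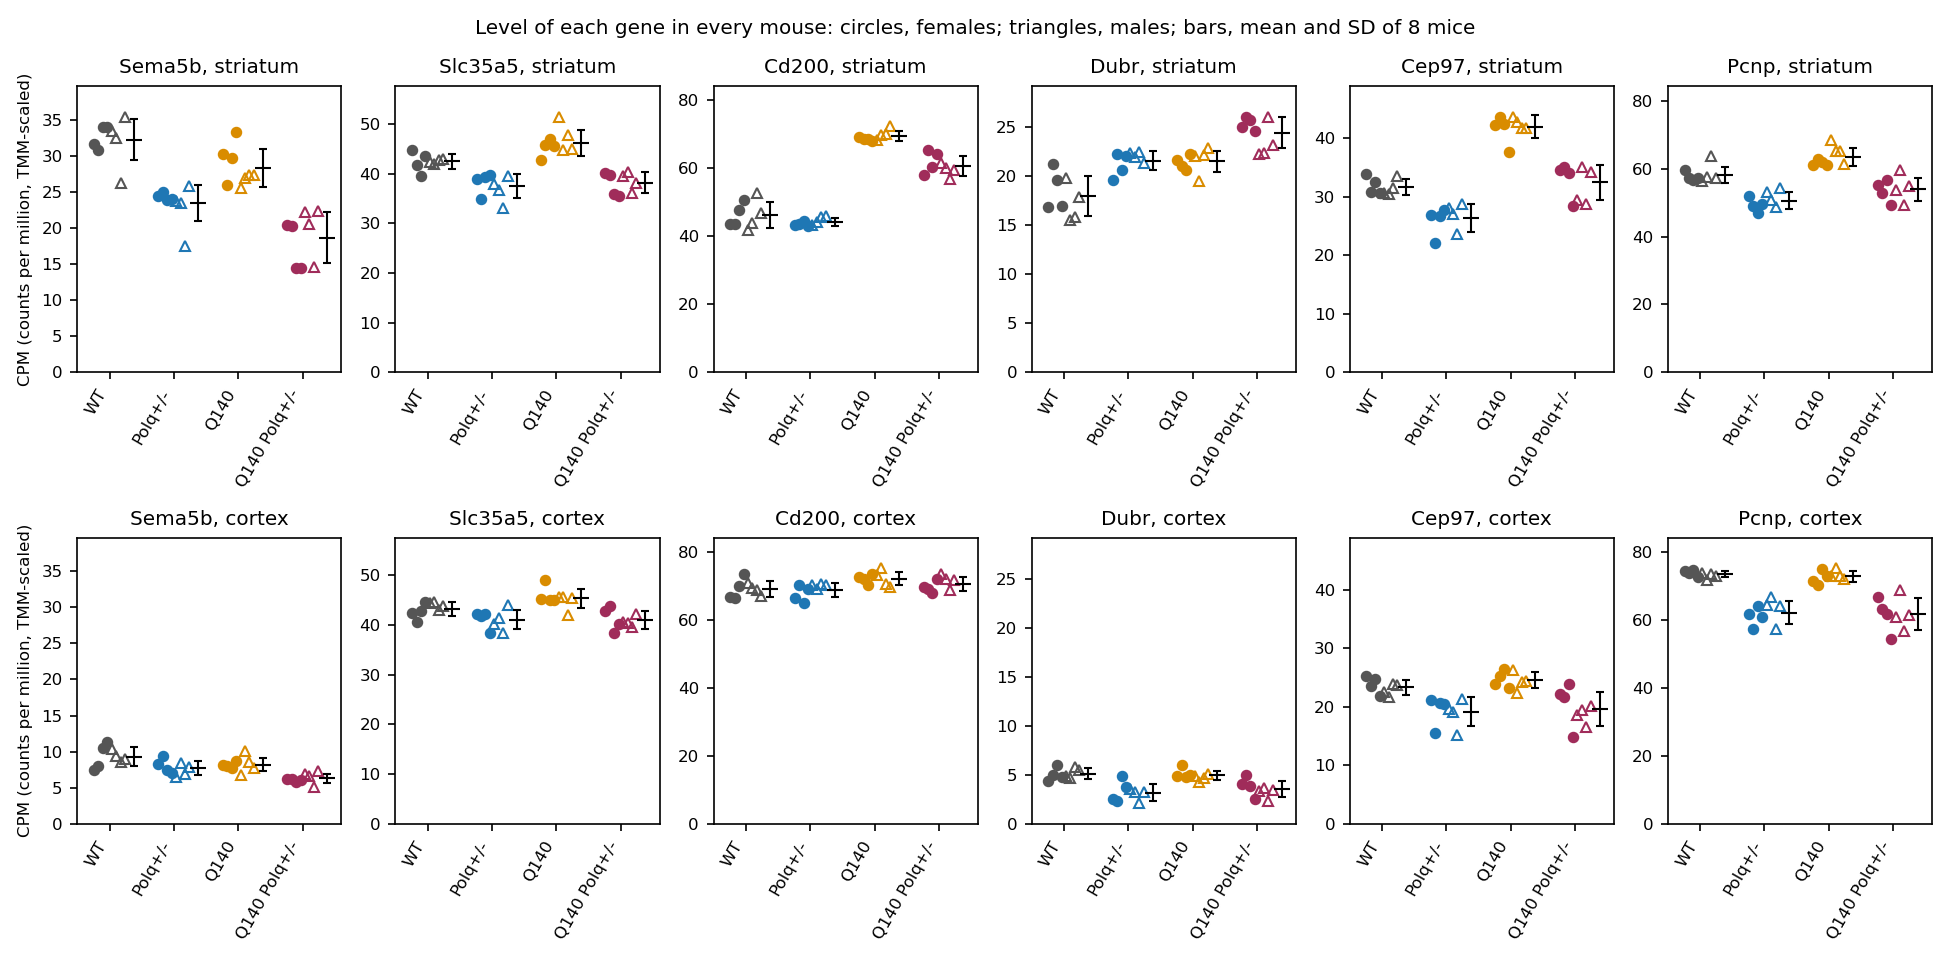
CPM (vertical axis, TMM-scaled) of each of the 6 genes in every mouse, by genotype (horizontal axis), with striatum above and cortex below. Circles are females, triangles males, and bars give the mean and SD of 8 mice; in striatum Sema5b, Cep97 and Pcnp of mice labelled Polq+/- lie wholly below the non-carriers of the same Q140 status, while Dubr lies higher.

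Sema5b, the semaphorin, was lower by Polq label in both tissues. In striatum its lowest, median and highest levels were 26.2, 33.0 and 35.4 CPM in WT and 17.5, 23.9 and 25.8 CPM in Polq+/-. They were 25.5, 27.3 and 33.3 CPM in Q140 and 14.4, 20.4 and 22.3 CPM in Q140 Polq+/-. All 16 striatal carriers lay below every non-carrier of the same Q140 status. The share of all genes whose groups did not overlap was not counted, here or for the other genes below. In cortex the levels were 7.42, 9.13 and 11.4 CPM in WT, 6.50, 7.66 and 9.41 CPM in Polq+/-, 6.80, 8.06 and 10.1 CPM in Q140, and 5.13, 6.21 and 7.32 CPM in Q140 Polq+/-. The cortical groups overlapped, with 3 of 8 Polq+/- mice below all WT mice and 6 of 8 Q140 Polq+/- mice below all Q140 mice. Averaged over Q140 status, the difference between carriers and non-carriers was -0.53 ± 0.06 log2 (SE) in striatum and -0.33 ± 0.06 log2 in cortex.

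Cd200, the restraint on microglia, had its largest Polq-label difference in striatum of Q140 Polq+/- against Q140 mice, the comparison through which it was chosen. Its lowest, median and highest striatal levels were 41.7, 45.3 and 52.6 CPM in WT, 43.0, 43.9 and 46.0 CPM in Polq+/-, 68.0, 68.9 and 72.5 CPM in Q140, and 56.7, 60.2 and 65.5 CPM in Q140 Polq+/-. The 8 Q140 Polq+/- mice all lay below the 8 Q140 mice, while the Polq+/- values lay within the WT range. In cortex the 4 groups ranged from 64.8 to 75.2 CPM and overlapped. The average difference was -0.13 ± 0.03 log2 in striatum and -0.02 ± 0.02 log2 in cortex. In the separate comparisons it was -0.07 ± 0.04 log2 against WT and -0.19 ± 0.04 log2 against Q140 in striatum. The difference between these 2 was -0.12 ± 0.05 log2, given without a test since both comparisons took part in the choice. Over all striatal genes the smallest adjusted p for such a difference was 0.996 (edgeR).

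Slc35a5, the nucleotide-sugar transporter, had a smaller difference. In striatum the lowest, median and highest levels were 39.5, 42.6 and 44.8 CPM in WT and 33.1, 38.4 and 39.7 CPM in Polq+/-. They were 42.7, 45.7 and 51.4 CPM in Q140 and 35.6, 38.8 and 40.4 CPM in Q140 Polq+/-. The Q140 Polq+/- mice did not overlap the Q140 mice, and 6 of 8 Polq+/- mice lay below all WT mice. Cortical levels were 40.6, 43.4 and 44.6 CPM in WT, 38.4, 41.6 and 44.0 CPM in Polq+/-, 42.1, 45.4 and 49.1 CPM in Q140, and 38.5, 40.5 and 43.8 CPM in Q140 Polq+/-, and the groups overlapped. The average difference was -0.23 ± 0.03 log2 in striatum and -0.11 ± 0.02 log2 in cortex.

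Cep97, the centriole cap, was lower in carriers of both tissues by a similar amount. Striatal levels were 30.4, 31.1 and 33.9 CPM in WT, 22.1, 27.0 and 28.8 CPM in Polq+/-, 37.6, 42.3 and 43.7 CPM in Q140, and 28.4, 34.1 and 35.1 CPM in Q140 Polq+/- (lowest, median, highest). Cortical levels were 21.6, 23.6 and 25.2 CPM in WT, 15.2, 20.04 and 21.4 CPM in Polq+/-, 22.4, 24.3 and 26.5 CPM in Q140, and 14.9, 19.7 and 23.9 CPM in Q140 Polq+/-. Carriers and non-carriers of the same Q140 status did not overlap in striatum. In cortex they did not overlap without Q140, and 7 of 8 Q140 Polq+/- mice lay below all Q140 mice. The average difference was -0.32 ± 0.04 log2 in striatum and -0.31 ± 0.05 log2 in cortex.

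Pcnp, the nuclear protein gene close to Cep97, was lower in all 16 carriers of both tissues. Striatal levels were 56.5, 57.2 and 63.8 CPM in WT, 47.0, 50.2 and 54.4 CPM in Polq+/-, 61.0, 62.4 and 68.5 CPM in Q140, and 49.3, 54.3 and 59.5 CPM in Q140 Polq+/- (lowest, median, highest). Cortical levels were 72.0, 73.8 and 74.8 CPM in WT, 57.4, 63.1 and 67.0 CPM in Polq+/-, 70.4, 73.0 and 75.3 CPM in Q140, and 54.3, 61.8 and 69.0 CPM in Q140 Polq+/-. No carrier reached a non-carrier of the same tissue and Q140 status. The average difference was -0.22 ± 0.02 log2 in striatum and -0.24 ± 0.02 log2 in cortex.

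Dubr, the long noncoding RNA, was lower by Polq label in cortex and higher in striatum, against the description of the 6 genes as falling. Cortical levels were 4.38, 4.93 and 6.03 CPM in WT, 2.09, 3.25 and 4.87 CPM in Polq+/-, 4.30, 4.86 and 5.99 CPM in Q140, and 2.31, 3.56 and 4.93 CPM in Q140 Polq+/- (lowest, median, highest). Striatal levels were 15.5, 17.4 and 21.3 CPM in WT, 19.6, 22.0 and 22.4 CPM in Polq+/-, 19.5, 21.8 and 22.9 CPM in Q140, and 22.3, 24.8 and 26.1 CPM in Q140 Polq+/-. In cortex 7 of 8 carriers lay below all non-carriers, with and without Q140, while in striatum 6 of 8 lay above all non-carriers, with and without Q140. The average difference was -0.58 ± 0.09 log2 in cortex and 0.22 ± 0.04 log2 in striatum.

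Over the average of both Q140 states, 5 of the 6 genes were called lower in striatum, where 0.0602% of 18270 genes were, and 5 in cortex, where 0.0497% of 18116 genes were. Cd200 was the gene not called in cortex, and Dubr was called higher in striatum, where 0.0383% of genes were (0.0607% in cortex). These calls restate the choice of the genes. The median of the 6 was -0.22 log2 in striatum and -0.27 log2 in cortex, with medians over all genes of -3.46e-05 and 0.000825. The threshold used for the choice is not stated, and an adjusted p under 0.05 returned the 6 genes and Polq. Closest inside that value, by the smallest edgeR adjusted p over the 4 comparisons, stood Cd200 at 0.00935, Dubr at 0.0228 and Polq at 0.0394. Just outside it were the chromosome 16 genes Cpox at 0.0797, Abi3bp at 0.113 and Nfkbiz at 0.114. Over the average of both Q140 states these genes were called lower too, by edgeR. Cpox was so in striatum (adjusted p = 0.00248) and cortex (0.003), Abi3bp in striatum (0.0011) and Nfkbiz in cortex (0.0408).

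Carriers differed among themselves, and some mice were low for several of the genes. Each carrier is given here as percent of the mean of the 8 non-carriers of its tissue and Q140 status. For Sema5b in striatum, Q140 Polq+/- F4, F3 and M3 stood at 51.0%, 51.3% and 51.4% and Polq+/- M3 at 54.2%, while the other 12 carriers lay between 71.9% and 80.2%. Those 4 mice also had the 4 lowest striatal levels of Polq, with the 3 Q140 Polq+/- mice at 6.03% to 9.65% and the other 12 carriers at 41.8% or more, and of Slc35a5, 76.9% to 78.2% against 82.3% to 93.6%. They were the lowest for Polq in cortex too, at 15.7% to 24.2% against 46.7% to 80.6%. In cortex they were among the 5 lowest carriers for both genes, but without a gap. Cortical Sema5b was 62.5% to 74.3% in these 4 mice and 69.8% to 101% in the other 12, and cortical Slc35a5 84.7% to 88.9% against 88.7% to 102%. Without the 4 mice the average Polq-label difference of Sema5b in striatum was -0.41 log2 in place of -0.53, and that of Slc35a5 in striatum -0.19 in place of -0.23. In cortex that of Dubr was -0.47 in place of -0.58, that of Pcnp -0.20 in place of -0.24, and that of Slc35a5 -0.088 in place of -0.111.

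Cep97 was lowest in 5 mice, of which 3 (Q140 Polq+/- F4 and M3 and Polq+/- M3) are among those 4. In striatum Q140 Polq+/- F4, M3 and M1 stood at 67.8%, 68.6% and 70.0% and Polq+/- F2 and M3 at 69.6% and 74.2%, with the other 11 carriers between 81.0% and 90.8%. The same 5 mice were the lowest in cortex, from 60.5% in Q140 Polq+/- F4 to 75.7% in Q140 Polq+/- M1, with the other 11 between 79.0% and 97.2%. Q140 Polq+/- F3, low for Sema5b, was the highest of all 16 for cortical Cep97, at 97.2%.

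Pcnp shared most of that order. Its 4 lowest cortical values were Q140 Polq+/- F4 at 74.4%, Q140 Polq+/- M3 at 77.7% and Polq+/- F2 and M3 at 78.1% each, below 82.8% to 94.6% in the other 12. In striatum F4 and M3 of Q140 Polq+/- were again lowest, at 77.7% and 77.9%, followed by Polq+/- F3 at 80.8%. Dubr in cortex was lowest in Polq+/- M3 at 40.9%, Polq+/- F2 at 45.3%, Q140 Polq+/- M3 at 46.8%, Polq+/- F1 at 49.2% and Q140 Polq+/- F4 at 52.1%. Q140 Polq+/- F2 at 99.7% and Polq+/- F3 at 95.2% were near the level of non-carriers. In striatum every carrier was above 100% for Dubr, from 104% to 125% in Polq+/- M3, and Cd200 ranged from 81.7% to 99.3%. The mice of lowest Polq were spread over this range of Cd200. Polq+/- M3 was at 98.4%, and Q140 Polq+/- F4, F3 and M3 were at 92.5%, 86.9% and 81.7%.

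**Figure D2:**
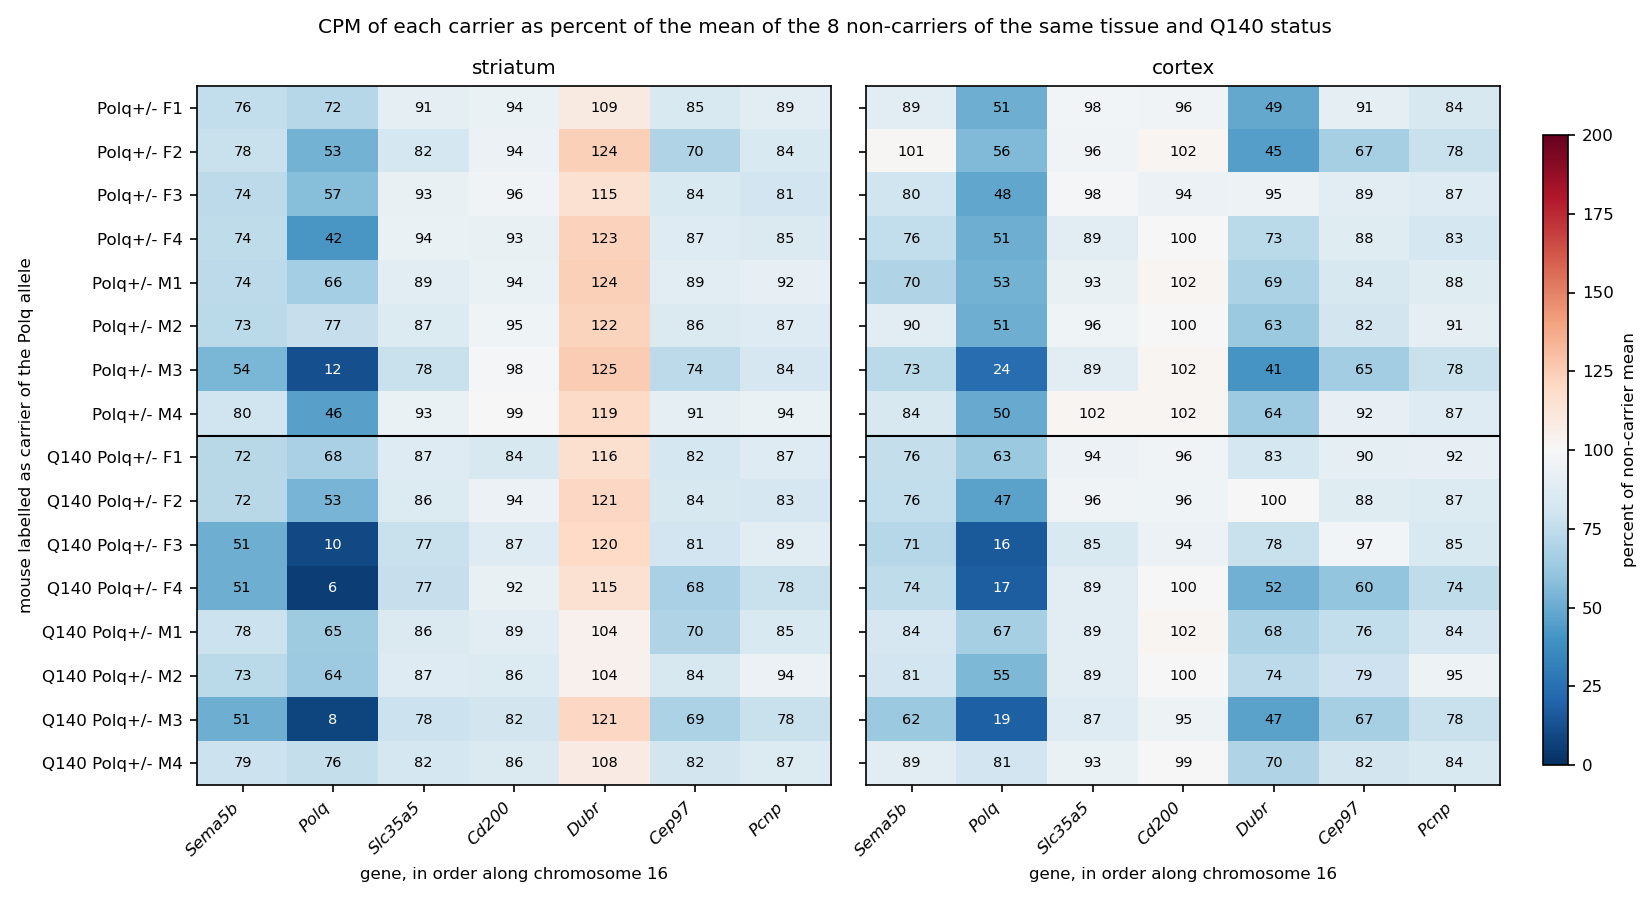
CPM of 7 genes (horizontal axis, in order along chromosome 16) in each of the 16 mice labelled as Polq carriers (vertical axis), as percent of the mean of the 8 non-carriers of the same tissue and Q140 status; blue is below and red above 100%. Striatal Sema5b is near 51% in 3 Q140 Polq+/- mice and 54.2% in Polq+/- M3, Cep97 is lowest in 5 mice in both tissues, and Dubr is above 100% in all striata.

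Whether a mouse low in one tissue was low in the other was tested on deviations of log2 CPM from the genotype mean, with permutation within genotype (two-sided, 100000 draws, 12 relations adjusted together by Benjamini and Hochberg). Pcnp correlated between tissues over the 16 carriers, with Pearson r = 0.716 (permutation p = 0.00382, adjusted 0.0202) and Spearman rho = 0.688 (p = 0.00593, adjusted 0.022), and r was 0.522 without the 2 most extreme mice. Cep97 correlated over the 16 non-carriers, with r = 0.614 (permutation p = 0.0154, adjusted 0.0462) and rho = 0.685 (p = 0.00522, adjusted 0.022), and r was 0.547 without 2 mice. Carriers fell into separate clusters for Sema5b and Cep97, so no pooled value is given there. For Pcnp the non-carriers were parted by a gap of 0.355 of their range. Their r was 0.21 (permutation p = 0.458, adjusted 0.612) and did not pass. The other 7 relations did not pass, with adjusted permutation p from 0.149 to 0.819 for Pearson's r. The carriers include the mice of lowest Polq, and of these Q140 Polq+/- F4 and M3 were lowest for Pcnp in both tissues. The share of all genes that pass in this way was not counted.

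Along chromosome 16 the 6 genes stood among other called genes, in both directions. In striatum 10 genes of 529 tested on the chromosome (Polq left out) were lower and 6 higher by Polq label, against 1 lower and 1 higher of 17740 elsewhere. In cortex 8 of 528 were lower and 10 higher, against 0 and 1 of 17587 elsewhere. The called genes lay between 5 Mb before and 30 Mb beyond Polq, except Btg3 in striatum at 41.3 Mb. Within that span the median of the tested genes stayed near 0, for example -0.03 log2 over the 16 striatal genes and -0.00309 log2 over the 15 cortical genes from 15 to 20 Mb, the interval of Cep97 and Pcnp.

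**Figure D3:**
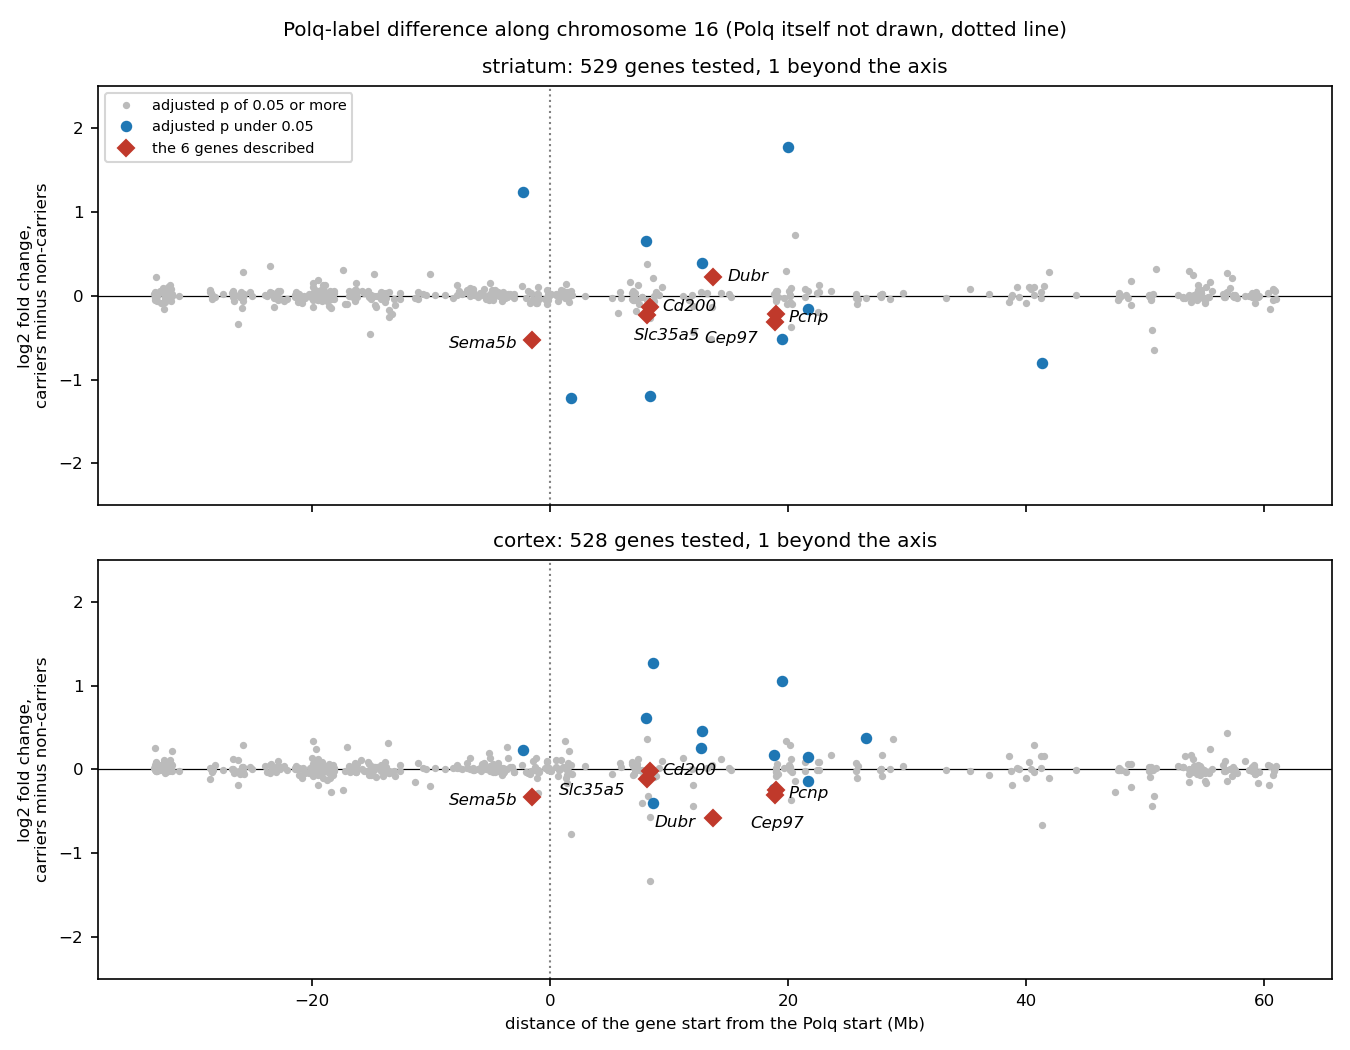
Log2 fold change between carriers and non-carriers of the Polq label (vertical axis) against distance of the gene start from that of Polq in Mb (horizontal axis), 529 genes in striatum and 528 in cortex, with 1 gene beyond the axis in each. Diamonds are the 6 genes, blue points other genes with adjusted p under 0.05 and grey points the rest; called genes lie from 5 Mb before to 30 Mb beyond Polq except Btg3 at 41.3 Mb.

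The nearest neighbours of the 6 genes with a mean of at least 1 CPM mostly were not called by Polq label. Next to Slc35a5, Ccdc80 was higher, by 0.65 ± 0.06 log2 in striatum (edgeR adjusted p = 2.11e-08) and 0.62 ± 0.07 log2 in cortex (adjusted p = 4.61e-06), while Atg3 on the other side was at -0.05 ± 0.03 and -0.07 ± 0.03 log2 and not called. Next to Cep97, Nxpe3 was called only in cortex, at 0.17 ± 0.03 log2 (adjusted p = 0.00123), and Rpl24 in neither tissue. Zbtb11, which overlaps the end of Pcnp on the other strand, was at -0.04 ± 0.03 log2 in striatum and -0.08 ± 0.02 log2 in cortex, both not called. Pdia5 and Gm5963 beside Sema5b, Gm6030 and Tagln3 beside Cd200, Gm9575 and Gm6767 beside Dubr, and Trmt10c beside Pcnp were not called. Nearer to Cd200 than these lies Gm609, below that mean level, which was called lower in striatum, at -1.19 ± 0.25 log2 (adjusted p = 0.0342). Tmprss7, nearer to Cd200 than Tagln3, was called lower in cortex, at -0.40 ± 0.08 log2 (edgeR adjusted p = 0.0288).

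The Q140 knock-in was tested next, as carriers of Q140 against non-carriers averaged over Polq label. This contrast is balanced against those that chose the genes. Both use the same estimate of each gene's spread, so the tests are not fully independent. In striatum Cd200, Cep97, Dubr, Pcnp and Slc35a5 rose and Sema5b fell, so 6 of 6 were called, where 44.8% of all genes were called (23.6% higher and 21.2% lower). Cd200 rose by 0.52 ± 0.03 log2 (edgeR adjusted p = 5.56e-19), and neither Q140 group overlapped the group of the same Polq label. Cep97 rose by 0.35 ± 0.04 log2 (adjusted p = 1.54e-10), with all 8 Q140 mice above all WT mice and 6 of 8 Q140 Polq+/- mice above all Polq+/- mice. These 2 genes had the largest Q140 differences of the 6. The share of all genes whose Q140 groups did not overlap was not counted.

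The other striatal differences were smaller. Q140 comparisons within a single Polq label, here and for cortex below, share groups with the comparisons that chose the genes. Their values are no independent test. Dubr rose by 0.22 ± 0.04 log2 (edgeR adjusted p = 4.52e-06), with 5 of 8 Q140 mice above all WT mice. Pcnp rose by 0.11 ± 0.02 log2 (adjusted p = 0.000367) and the groups overlapped, with an adjusted p of 0.0502 in a fit of Q140 Polq+/- and Polq+/- mice only. Slc35a5 rose by 0.07 ± 0.03 log2 (adjusted p = 0.0277), without Polq+/- F2 its adjusted p was 0.0506, and in Q140 Polq+/- against Polq+/- alone it was at 0.02 ± 0.04 log2 (adjusted p = 0.688). Sema5b fell by 0.26 on the log2 scale (SE 0.06, adjusted p = 0.00122), and its adjusted p in Q140 against WT alone was 0.103. It had all 8 Q140 Polq+/- mice below the median of Polq+/- and 7 of 8 Q140 mice below the median of WT. The lowest Q140 Polq+/- mice for Sema5b, F4, F3 and M3 at 14.4, 14.5 and 14.5 CPM, were those of lowest Polq. Polq+/- M3, the other mouse of lowest Polq, was at 17.5 CPM. The Sema5b call stayed without these 4 mice, and the part of their uneven spread over the groups in its fall was not tested. The spiny projection neuron markers moved with Q140 in the same libraries: 7 of 7 were lower, the summed level was 7625 to 9001 CPM in WT and Polq+/- mice and 4760 to 5528 CPM in Q140 and Q140 Polq+/- mice, and the part of this in the 6 genes' differences was not tested. Other markers were called lower with Q140 in striatum too: 5 of 5 of microglia (median -0.11 log2), 4 of 4 of endothelium (-0.18), 3 of 6 of oligodendrocytes (-0.08), 2 of 5 of astrocytes (-0.09) and 2 of 4 pan-neuronal genes (-0.04), and 1 of 4 tested cortical excitatory neuron markers was higher.

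In cortex Sema5b was the only 1 of the 6 called, where 2.46% of genes were. It fell by 0.24 on the log2 scale (SE 0.06, edgeR adjusted p = 0.0209), with 7 of 8 Q140 mice below the median of WT. Without the 4 mice of lowest Polq, Polq+/- M3 and Q140 Polq+/- F3, F4 and M3, it was at -0.21 ± 0.06 log2 (adjusted p = 0.0953). Set against Polq+/- mice alone, Q140 Polq+/- mice were at -0.29 ± 0.09 log2 (adjusted p = 0.135). With limma on FPKM its adjusted p was 0.0538 to 0.0952. Cd200 was at 0.05 ± 0.02 log2 (adjusted p = 0.125), without WT F4 its adjusted p was 0.0445, and with limma on FPKM 0.0247 to 0.0425. Cep97 was at 0.05 ± 0.05, Dubr at 0.05 ± 0.09, Slc35a5 at 0.03 ± 0.02 and Pcnp at -0.01 ± 0.02 log2, with adjusted p from 0.528 to 0.914, and the sign of the last 3 changed under some settings. Among the cortical markers 2 of 4 pan-neuronal genes and 1 of 6 oligodendrocyte genes were called lower with Q140, and 1 of 7 spiny neuron, 1 of 5 microglia and 1 of 3 tested cerebellar granule cell genes higher. The summed spiny neuron level was 174 to 207 CPM over all 4 genotypes, and the part of these markers in the difference of Sema5b was not tested.

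**Figure D4:**
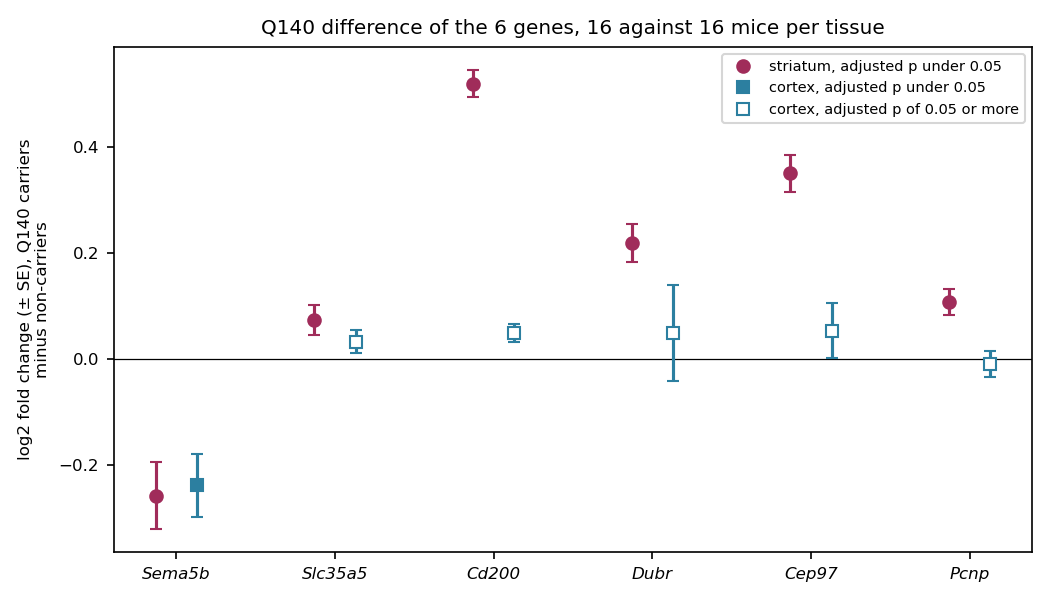
Log2 fold change (vertical axis, with SE) between Q140 carriers and non-carriers, 16 against 16 mice, for each of the 6 genes (horizontal axis) in striatum (circles) and cortex (squares). Filled symbols have an adjusted p under 0.05: all 6 in striatum, from Sema5b at -0.26 to Cd200 at 0.52, and Sema5b in cortex at -0.24.

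The Q140 difference itself was compared between tissues in 1 fit of the 64 libraries, with a term for each mouse. Cd200 differed by 0.47 ± 0.03 log2 (striatum minus cortex, edgeR adjusted p = 1.99e-17), Cep97 by 0.29 ± 0.03 log2 (adjusted p = 5.01e-09) and Pcnp by 0.11 ± 0.03 log2 (adjusted p = 0.000496). These were 3 of the 6 genes, where 32.1% of 19091 genes were called. Dubr at 0.16 ± 0.10, Slc35a5 at 0.03 ± 0.03 and Sema5b at -0.03 ± 0.06 log2 did not pass, with adjusted p from 0.232 to 0.730. With limma on FPKM, Slc35a5 passed (adjusted p 0.0146 to 0.0233), and Dubr passed with a pseudocount of 1 (adjusted p = 0.000774). A p that misses the threshold does not show that these 3 changes were alike in both tissues.

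Every one of the 6 genes differed between the tissues, where 87.6% of genes did. Dubr was higher in striatum by 2.33 ± 0.05 log2 (edgeR adjusted p = 4.51e-31), Sema5b by 1.64 ± 0.03 log2 (adjusted p = 8.12e-38) and Cep97 by 0.56 ± 0.02 log2 (adjusted p = 7.56e-30). Cd200 was lower in striatum, at -0.42 ± 0.01 log2 (adjusted p = 7.36e-29), as were Pcnp at -0.31 ± 0.01 log2 (adjusted p = 3.67e-25) and Slc35a5 at -0.11 ± 0.02 log2 (adjusted p = 3.95e-08). The striatal and cortical values of Dubr and Sema5b did not overlap, at 15.5 to 26.1 against 2.09 to 6.03 CPM for Dubr and 14.4 to 35.4 against 5.13 to 11.4 CPM for Sema5b.

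Sex did not separate the 6 genes in the edgeR test. Of the 6, 0 were called between females and males by edgeR, DESeq2 or limma on FPKM, where 0.367% of genes were in striatum and 1.15% in cortex. At an unadjusted p under 0.05 edgeR had 1621 genes in striatum and 2354 in cortex, and 0 of the 6. The lowest unadjusted p was that of Pcnp in striatum, 0.0538 (edgeR), for a difference of -0.05 ± 0.02 log2. The Polq-label difference was compared between males and females as well, and 0 of the 6 and 0.0% of all genes were called in either tissue at an adjusted p under 0.05. At an unadjusted p under 0.05 there were 625 genes in striatum and 514 in cortex by edgeR, and none of the 6 was among them. Cep97, for example, differed between the sexes by -0.01 ± 0.07 log2 in striatum and -0.06 ± 0.11 log2 in cortex.

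Genes that work with the 6 were read from 5 lists, chosen with earlier results of these data known. Sema5a, Ccp110, Uhrf2 and Cd200r1 are named for their role, after their values were seen. By Polq label only 18 of 18270 genes in striatum and 20 of 18116 in cortex were called at all, so lists of this size say little. None of their genes was called in either tissue: 0 of 30 semaphorins, plexins and neuropilins, 0 of 17 partners of Cep97, 0 of 23 SLC35 transporters, 0 of the 4 tested in striatum and 6 in cortex of the 8 CD200 receptors and adaptors, and 0 of the 5 tested of 7 Pcnp ligases and Dubr partners. Sema5a, the other class 5 semaphorin, was at -0.01 ± 0.04 log2 in striatum and -0.05 ± 0.06 log2 in cortex by Polq label. Ccp110, which caps the centriole with Cep97, was at -0.02 ± 0.03 and -0.02 ± 0.02 log2. Uhrf2, the ligase of Pcnp, was at -0.02 ± 0.03 and -0.04 ± 0.03 log2.

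With Q140 in striatum each of the 3 larger lists had calls in both directions, where 44.8% of all genes were called. Of the 30 semaphorins, plexins and neuropilins 11 rose and 10 fell, led by Sema7a at -0.47 ± 0.05 log2 (edgeR adjusted p = 7.14e-10), Sema6c at 0.40 ± 0.04 (adjusted p = 9.51e-10) and the receptor Plxna3 at 0.35 ± 0.05 (adjusted p = 5.35e-08). The list's median was -0.03 log2 and that of all genes 0.00317. Of the 17 Cep97 partners 4 rose and 4 fell, among them Cep164 of the distal appendages at 0.40 ± 0.04 log2 (adjusted p = 4.01e-10) and Cep83 at -0.22 ± 0.03, while Ccp110 was at -0.02 ± 0.03 and not called. Of the 23 SLC35 transporters 5 rose and 5 fell, led by Slc35e4 at 0.30 ± 0.03, Slc35e3 at 0.23 ± 0.03 and Slc35d3 at -0.19 ± 0.03 log2.

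The remaining lists were small. Of the CD200 receptors and adaptors only Rasa1, a Ras GTPase-activating protein, was called with Q140 in striatum, at 0.06 ± 0.02 log2 (edgeR adjusted p = 0.0255), and Cd200r1 did not pass the low-count filter there. Of the Pcnp and Dubr partners Dnmt3a, a DNA methyltransferase, fell at -0.19 ± 0.03 log2 (adjusted p = 1.57e-06) and Uhrf2 at -0.08 ± 0.03 log2 (adjusted p = 0.0173), while Dnmt3b rose at 0.34 ± 0.13 log2 (adjusted p = 0.0314). The summed level of the 5 microglia markers in striatum was 306 to 351 CPM in WT and Polq+/- and 292 to 347 CPM in Q140 and Q140 Polq+/- mice. In cortex the lists gave 1 higher and 2 lower semaphorin genes, 1 lower Cep97 partner (Usp33) and no call in the other 3.

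Likeness to other genes was measured over the 64 libraries as the Pearson r of log2 CPM centred on the tissue mean, among 14577 genes of which 3.03% lie on chromosome 16. These libraries share genotype and include the Polq-label groups that chose the 6 genes. Nearly all genes called by Polq label lie on chromosome 16, so likeness to genes there follows in part from the choice. The values are thus a description. Sema5b was most like Polq (r = 0.803), then Btg3 (0.584) and Agpat1 of chromosome 17 (0.512). Slc35a5 was also most like Polq (0.698), then Cpox (0.642) and Cnep1r1 of chromosome 8 (0.587). Cep97 was most like Cpox (0.775), Btg3 (0.654) and Usp25 (0.645), and Pcnp most like Cpox (0.722), Polq (0.677) and Btg3 (0.673), all on chromosome 16.

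Cd200 and Dubr had other company. The genes most like Cd200 were Gng3 (r = 0.910), Gprasp2 (0.909) and Syp (0.907), neuronal genes of chromosomes 19 and X. Dubr was most like D630045J12Rik (0.465), Stk36 (0.442) and Zfp462 (0.426), none on chromosome 16 and all at lower r. Of the 20 genes most like each, 11 lay on chromosome 16 for Pcnp, 10 for Slc35a5, 7 for Cep97, 3 for Sema5b and 1 each for Cd200 and Dubr. Among the 6 themselves, Cep97 and Pcnp were the most alike (r = 0.852), followed by Slc35a5 with Pcnp (0.755) and with Cep97 (0.726), and Sema5b with Cd200 were the least alike (r = -0.126).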

How the data were processed

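RNA of 64 striatal and cortical samples was made into libraries with a stranded TruSeq kit, per the labels' protocols. The submitters' processing notes name STAR 2.7.5c, SAMtools 1.10, HTSeq 0.12.3 and GRCm38. No source used here gives the strand option. From these the authors deposited counts per gene, not normalized, and FPKM, both for 48795 genes. No column of other samples was found (0).

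Counts were scaled by TMM and tested with edgeR 4.0.16 (quasi-likelihood, robust, filterByExpr) in R 4.3.3, with Benjamini-Hochberg adjustment over all genes tested and a threshold of 0.05. Each tissue was fitted over 4 genotypes of 8 mice with a term for sex. Tissue comparisons used 1 fit of the 64 libraries with a term for each mouse. Within a tissue each sample is a separate mouse, with 28.7 to 40.6 M counts each (M is mega). FPKM from the deposited table served for levels between genes and, as log2 of FPKM plus 0.1 or 1, for limma 3.58.1. The alternatives were DESeq2 1.42.0, its size factors, no filter, FPKM, a replicate block, a plate column, other groups, and libraries left out. Simulated data were run only through the striatal Q140 fit and the fit of striatum against cortex, and the outcome is not given here.

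The members and lists were chosen with earlier results of these data known. The genes named are the 6, Polq, the 3 most alike genes, the nearest expressed neighbours (mean of at least 1 CPM), and from each role list up to 3 genes of smallest p. Other genes were named after their values were seen.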

Additional observations from a re-analysis of the deposited data

Results flagged for a closer look

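In 4 of 48 groups of 8 mice, 1 library stood apart from the nearest other by a gap above Dixon's 95% critical value for its share of the group's range, and chance gives this in about 1 in 20 groups. Sema5b in the striatum of Polq+/- M3 was 17.5 CPM, with the next mouse at 23.4 CPM. Cep97 in the striatum of Q140 F4 was 37.6 CPM, with the next at 41.8 CPM. Pcnp in the striatum of WT M3 was 63.8 CPM, with the next at 59.5 CPM, and this is 1 of the 3 striatal libraries that stood apart. Dubr in the cortex of Q140 F2 was 5.99 CPM, with the next at 5.10 CPM.

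The Q140 difference of 3 genes differed between the tissues in the edgeR test of that difference. It was larger in striatum by 0.47 log2 for Cd200, by 0.29 log2 for Cep97 and by 0.11 log2 for Pcnp.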

How the results depend on the processing

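Of the members' values, 822 kept direction and call under the settings other than leaving out 1 mouse, 30 moved by more than 1 SE, 7 gained a call, 12 lost one and 29 changed sign. With 1 mouse left out, 1881 kept both, 1 gained a call, 1 lost one and 37 changed sign. Each value that changed sign was near 0 and not called before or after, and the cause was not tested.

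Cortical Q140 differences changed sign for Slc35a5 in Q140 Polq+/- against Polq+/- (-0.00282, or -0.00214 on those groups only), for Dubr in Q140 against WT (-0.0490, or -0.0483), and for Pcnp with FPKM (0.00295 at a pseudocount of 0.1 with or without a filter, 0.00287 at 1), with a plate column (0.00227) and without the 4 mice of low Polq (0.00943). The sex difference changed sign for striatal Cd200 (0.000360 with DESeq2 size factors, 0.000327 by DESeq2, 0.000282 without a filter, 0.00111 with a plate column, 0.00957 without the 3 libraries), cortical Sema5b (-0.00847 without the 4 mice) and cortical Slc35a5 (-0.000420 with a plate column). The Polq-label difference between sexes did so in striatum with a plate column for Dubr (-0.000605), Cep97 (0.000392) and Pcnp (0.00644), without the 3 libraries for Cd200 (0.0170), Dubr (-0.0424) and Pcnp (0.00999), and without the 4 mice for Dubr (-0.0121), Cep97 (0.00616) and Pcnp (0.0220), and in cortex for Sema5b (0.0237). The Q140 difference between tissues of Sema5b was 0.00640 with FPKM at 0.1, filtered or not, and 0.00562 without the 4 mice. With 1 mouse left out, sign changed within ranges of -0.0144 to 0.00992 for Cd200 (cortex, Polq+/- against WT), -0.0221 to 0.00228 for Pcnp (cortex, Q140), -0.0190 to 0.0324 for Sema5b (cortex, female against male), -0.00148 to 0.0149 for Slc35a5 (cortex, female against male), -0.0109 to 0.0137 for Cd200 (striatum, female against male), -0.0169 to 0.0119 for Cep97 (striatum, female against male) and -0.0220 to 0.00159 for Slc35a5 (striatum, female against male).

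The cortical Q140 call of Sema5b was lost (0 members called) in Q140 against WT and in Q140 Polq+/- against Polq+/-, each also fitted on those groups only, and without the 4 mice of low Polq. With 1 mouse left out, 1 to 2 members were called. Cortical Q140 genes numbered 446, against 290 with FPKM unfiltered at a pseudocount of 0.1, 266 with a plate column, 263 without the 4 mice and 780 at an adjusted p under 0.1. In Q140 Polq+/- against Polq+/- they were 61 (34 on those groups only), and in Q140 against WT 63 (65). Striatal Q140 genes fell from 8181 to 4957 in Q140 against WT on those groups only. FPKM with a pseudocount of 1 gave 5 members, not 3, whose Q140 difference differed between tissues.

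Genes differing by sex were 67 in striatum (121 by DESeq2, 102 at 0.1) and 209 in cortex (406 by DESeq2, 120 with unfiltered FPKM, 109 without the 4 mice, 468 at 0.1, and 157 to 325 with 1 mouse left out). The Polq-label difference between sexes gave 1 striatal gene with unfiltered FPKM, not 0. Polq+/- against WT called 9 striatal genes (4 without the 3 libraries that stood apart) and 8 cortical genes (5 with unfiltered FPKM, 5 to 10 with 1 mouse left out). Q140 Polq+/- against Q140 called 10 cortical genes (16 by DESeq2, 6 without the 4 mice).

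Same-numbered mice did not deviate together (median r 0.0117 in striatum and 0.0162 in cortex, over 0.1 in 8 and 6 of 48 pairs). With the replicate block 6 members were called for Q140 in striatum and 1 in cortex, as without it, among 8186 and 434 genes. The sex difference of the Polq label was not refitted with mice left out. Counts of Dubr in cortex (79 to 226) and Polq (6 to 148 in striatum) limit their precision.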
